A study of Drosophila melanogaster with 6 samples.

Results

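The nuclear genes of oxidative phosphorylation were followed through all 17 cell types of the adult Drosophila testis. Members were chosen by symbol alone: every gene named ND-, UQCR-, COX with a digit or ATPsyn, and SdhA, SdhB, SdhC, SdhD, RFeSP and Cyt-c1. This rule found 80 of the 17612 genes in the count tables. Of these, 64 are canonical members and 16 are testis paralogs, the genes whose symbol ends in L or in L and a digit. ND-MNLL, whose symbol ends in L without its being a copy of another subunit, was counted as canonical. By complex there were 34 canonical members and 6 paralogs in complex I, 4 canonical members in complex II, 8 and 2 in complex III, 7 and 4 in complex IV, and 11 and 4 in complex V. Another 6 genes carry an oxidative phosphorylation symbol in the reference annotation and a CG number in the count tables, so the rule did not take them, and they are given apart.

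Droplet-based single-cell RNA sequencing was performed on pooled testes of adult males of 3 ages (3–5 d, 6–8 d or 9–11 d), with 1 library per genotype and age. The mutant flies carried chinmoST, an allele of the transcription factor gene chinmo under which somatic cyst stem cells lose the protein. Their labels name the strain ChinmoST and give as genotype the chromosome Sod1[X-39] e[1] over the balancer TM3, which carries Sb[1] and Ser[1]. The control flies were wild-type Oregon R. All flies were raised at 25 °C, each library pooled about 100 pairs of testes, and most spermatids had been filtered out of the cell suspension before capture. The 3 ages of a genotype served as its 3 replicates, so a p-value below measures the spread between libraries of different ages, and whole testes were pooled within each.

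Oxidative phosphorylation makes most of the ATP of an aerobic cell. Complex I takes electrons from NADH and complex II from succinate, ubiquinone carries them to complex III, cytochrome c carries them on to complex IV, where oxygen is reduced, and complex V (ATP synthase) uses the resulting proton gradient to make ATP. Drosophila carries testis-biased copies of many nuclear subunits, and the mitochondria of its spermatids fuse into a large nebenkern that later runs along the sperm tail.

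The 6 libraries held 26549 kept cells, 6660, 3799 and 3273 in the youngest, middle and oldest chinmoST flies and 4490, 4399 and 3928 in wild-type, with 24746443 to 41822738 unique molecular identifiers (UMIs, each marking 1 captured RNA molecule) per library. The median was 1865 to 4123 UMIs per kept cell. Values of the 3 libraries of a genotype are given in this order of age throughout. Levels are in CPM, the UMIs of a gene per 1000000 UMIs of the cell type in that library. The assay reads 3′ ends, so a CPM counts molecules and was not divided by gene length. Of the kept cells, 34 barcodes (0.757% of the smaller library) were shared by the 3–5 d libraries of both genotypes, and 0 to 7 by any other pair. In CySCs (cyst stem cells), chinmo was at 5.91, 87.4 and 2.78 CPM in chinmoST and 324, 679 and 572 CPM in wild-type. Of 11 marker lists taken from the study, 7 had their highest mean level in the cell type they name. For CySCs the study also lists InR, aop and Socs36E, which were counted here in the hub list alone. The shorter CySC list was highest in hemocytes and the early cyst cell list in CySCs. The intermediate cyst cell list was highest in hub cells and the late spermatocyte list in intermediate spermatocytes. The type names are therefore those of the deposited annotation.

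The paralogs differed from canonical members in where they lie in the genome (dm6 coordinates, BDGP6 annotation). None of the 16 paralogs is X-linked, against 4 of 15 canonical members with a paralog and 8 of 49 without. A single coding exon is annotated for 10 of 16 paralogs, against 1 of 15 and 7 of 49 canonical members. In 9 of 14 pairs the paralog has fewer coding exons than its partner, and in 11 of 14 pairs both genes lie on different chromosome arms. COX4L (FBgn0033020, chromosome 2R, 5353994 to 5354723, plus strand) has 1 coding exon, and COX4 (FBgn0032833, 2L, 19958713 to 19960065, plus strand) has 2. COX5BL (FBgn0031831, 2L, 6559431 to 6560133, plus strand) starts 122 bases downstream of COX5B on the same strand. COX7AL (FBgn0037579, 3R, 8343669 to 8344310, plus strand) lies 2625 bases from COX7A, which is on the opposite strand. Exons of ND-15, ND-MNLL, ND-MWFE and COX6B overlap those of another gene on the same strand, so their counts are less certain. ND-MNLL had only 285 UMIs in all kept cells.

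The canonical genes were most abundant in the early cyst lineage. Their summed level was 66370 ± 7466 CPM in early cyst cells (mean ± SD, n = 6 libraries), the young somatic cells that enclose spermatogonia. CySCs followed at 45184 ± 21620 CPM, intermediate cyst cells at 37844 ± 1944 CPM, hub cells at 34715 ± 9844 CPM and GSCs/spermatogonia (germline stem cells and their dividing progeny) at 26407 ± 7813 CPM. In the mean of the 6 libraries, the germline sum was then lower at each later stage. It was 22692 ± 3223 CPM in early spermatocytes, 13433 ± 813 CPM in early spermatids and 11754 ± 788 CPM in late spermatids. In the later chinmoST libraries it instead rose from GSCs/spermatogonia to early spermatocytes. It went from 20085 to 26216 CPM at 6–8 d and from 16483 to 21869 CPM at 9–11 d. Neighbours in this order of 17 types differed by more than the pooled SD of both types only after early cyst cells, late cyst cells, early spermatids and late spermatids. This pooled SD is smaller than an SD of the difference between independent libraries would be. The CySC mean joins separate genotype levels, 1.83 to 3.21% of all UMIs in chinmoST and 6.22 to 6.56% in wild-type. Wild-type early cyst cells were at 5.65 to 7.39%, a range that holds that of wild-type CySCs. The gap after early cyst cells thus belongs to the mean of both genotypes. Cell types were defined from expression, so these levels are descriptions without a test. Within a cell type, less RNA of these genes per cell and fewer cells that make it cannot be told apart in the sums.

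**Figure D1:**
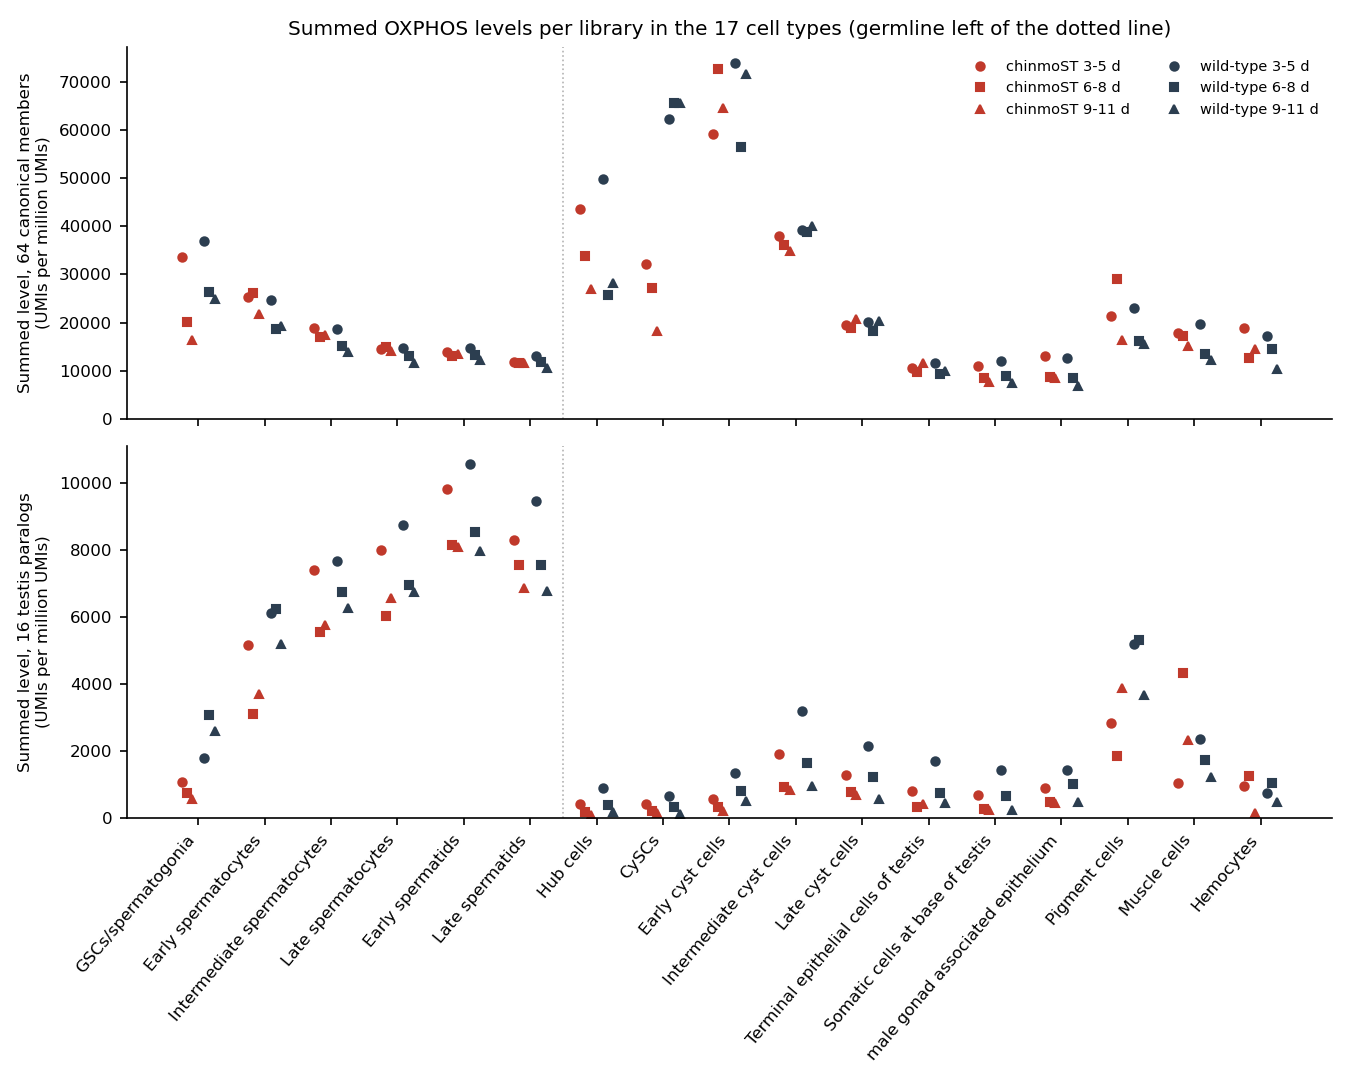
Summed level (CPM) of the 64 canonical members (upper panel) and the 16 testis paralogs (lower panel) in the 17 cell types. Each point is 1 library, red for chinmoST and dark blue for wild-type, with the shape giving the age. In the mean of all libraries, the canonical sum is highest in early cyst cells, and the paralog sum is highest in early spermatids, at 8852 ± 1084 CPM.

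In the mean of the 6 libraries, early cyst cells had the highest level of 60 of the 64 canonical members, early spermatids of 3 and early spermatocytes of 1. The most abundant member was ATPsynC, the subunit of the proton-carrying ring of ATP synthase, at 6050 CPM in early cyst cells and 56.1 CPM in early spermatids, a range of 108-fold. In early cyst cells it had 6130, 6860 and 5281 CPM in chinmoST and 7190, 4037 and 6800 CPM in wild-type, and the genotypes overlapped. COX7A, a small subunit of complex IV, ranged between 2778 CPM in early cyst cells and 116 CPM in early spermatids, and COX6B between 2505 CPM in early cyst cells and 329 CPM in late spermatocytes. ATPsynF was at 2471 CPM in early cyst cells. In complex III, UQCR-Q reached 1773 CPM and the Rieske iron-sulphur protein RFeSP 1151 CPM in the same cells, and in complex I ND-MLRQ reached 1667 CPM. Complex II was less abundant, with SdhD at 646 CPM and SdhC at 594 CPM, both membrane anchors of succinate dehydrogenase. ND-13A differed from these: it was highest in early spermatids, at 1004 CPM, and at 540 CPM in early cyst cells.

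In the mean of the 6 libraries, the paralogs followed the reverse course in the germline up to early spermatids. Their sum was 1643 ± 1033 CPM in GSCs/spermatogonia, 4910 ± 1275 CPM in early spermatocytes, 6559 ± 865 CPM in intermediate and 7176 ± 1006 CPM in late spermatocytes, 8852 ± 1084 CPM in early spermatids and 7748 ± 1008 CPM in late spermatids (n = 6 libraries each). As a share of all UMIs of the 80 members, paralogs made up 5.75 ± 3.33% in GSCs/spermatogonia, 18.0 ± 5.14% in early spermatocytes, then 28.1 ± 2.86% and 34.2 ± 3.23% in the intermediate and late stages, and 39.6 ± 1.67% in early spermatids. Exact 95% binomial intervals, which cover counting error only, were 0.178 to 4.90 percentage points wide per library in GSCs/spermatogonia and 0.303 to 0.688 points wide in early spermatids. The complexes differed in how far the paralogs took over. In early spermatids, paralogs gave 82.8 ± 1.03% of complex IV UMIs, 35.1 ± 1.61% of complex III, 31.1 ± 3.70% of complex V and 19.6 ± 1.82% of complex I, with no paralog of complex II among the members. In early spermatocytes the complex IV share was 43.6 ± 12.6%.

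Complex IV, cytochrome c oxidase, held the most abundant paralogs. COX4L, a copy of a nuclear-encoded subunit of the oxidase, had 1619, 1463 and 1456 CPM in chinmoST early spermatids and 1962, 1523 and 1439 CPM in wild-type, against 45.4, 34.4 and 15.2 CPM in chinmoST GSCs/spermatogonia and 160, 598 and 139 CPM in wild-type. All 6 libraries were higher in early spermatids. Its partner COX4 stood at 83.2 ± 15.8 CPM in early spermatids and 542 ± 243 CPM in GSCs/spermatogonia. COX7AL averaged 1377 ± 104 CPM in early spermatids and 93.6 ± 116 CPM in GSCs/spermatogonia. COX5BL averaged 1102 ± 141 and 57.7 ± 40.1 CPM in these types, while its neighbour COX5B averaged 42.0 ± 10.4 and 698 ± 342 CPM. The adjacent genes of this pair thus had opposite courses along the germline. COX6AL, whose partner is named levy, averaged 889 ± 80.2 and 78.8 ± 89.6 CPM.

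In complex I, the copies were of core subunits and of 1 accessory subunit. ND-B14.5AL, the accessory one, averaged 528 CPM in early spermatids and 47.8 CPM in GSCs/spermatogonia, and ND-24L, a copy of an NADH-module subunit, averaged 500 and 34.7 CPM. ND-20L averaged 299 and 31.2 CPM, and ND-49L 198 and 19.1 CPM. ND-51, the NADH-binding flavoprotein, has a pair of copies. ND-51L2 averaged 111 CPM in early spermatids, where it was highest, and ND-51L1 peaked earlier, at 128 CPM in intermediate spermatocytes against 72.4 CPM in early spermatids. In complex III, UQCR-14L averaged 485 and 39.9 CPM and UQCR-11L 483 and 49.7 CPM. Their canonical partners averaged 101 and 108 CPM (ND-B14.5A), 78.2 and 173 CPM (ND-24), 15.1 and 170 CPM (ND-20), 3.47 and 101 CPM (ND-49), 12.9 and 337 CPM (UQCR-14) and 44.6 and 359 CPM (UQCR-11). All but ND-B14.5A were lower in early spermatids in 6 of 6 libraries. In complex V, ATPsynGL, a copy of a membrane subunit, averaged 769 and 119 CPM. ATPsynCF6L, a copy of a peripheral stalk subunit, was highest in late spermatocytes at 689 CPM.

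Set against its own partner, nearly every copy became the main form by the intermediate spermatocyte. Among the 14 pairs whose partner is a member, the paralog gave over 50% of the pair's UMIs in all 6 libraries in 0 pairs in GSCs/spermatogonia, 1 in early spermatocytes (COX5BL) and 13 in each later type. The pair that missed this mark was ND-B14.5AL at the intermediate stage (5 of 6 libraries) and ATPsynbetaL from late spermatocytes on. The median share was 11.6% in GSCs/spermatogonia, 55.1% in early spermatocytes, 80.0% at the intermediate stage, 85.6% at the late one and 93.6% in early spermatids. In early spermatids it ran from 72.7% for ATPsynGL and 76.3% for ATPsynCF6L to 97.5% for UQCR-14L and 98.2% for ND-49L among the 13 pairs over 50% there. ATPsynbetaL, a copy of the catalytic beta subunit, held 56.2% of its pair in early spermatocytes, where it peaked at 197 CPM, 73.1% in intermediate spermatocytes, and 36.9 ± 19.3% in early spermatids, where both genes of the pair were low (7.69 CPM for ATPsynbetaL and 15.3 CPM for ATPsynbeta).

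**Figure D2:**
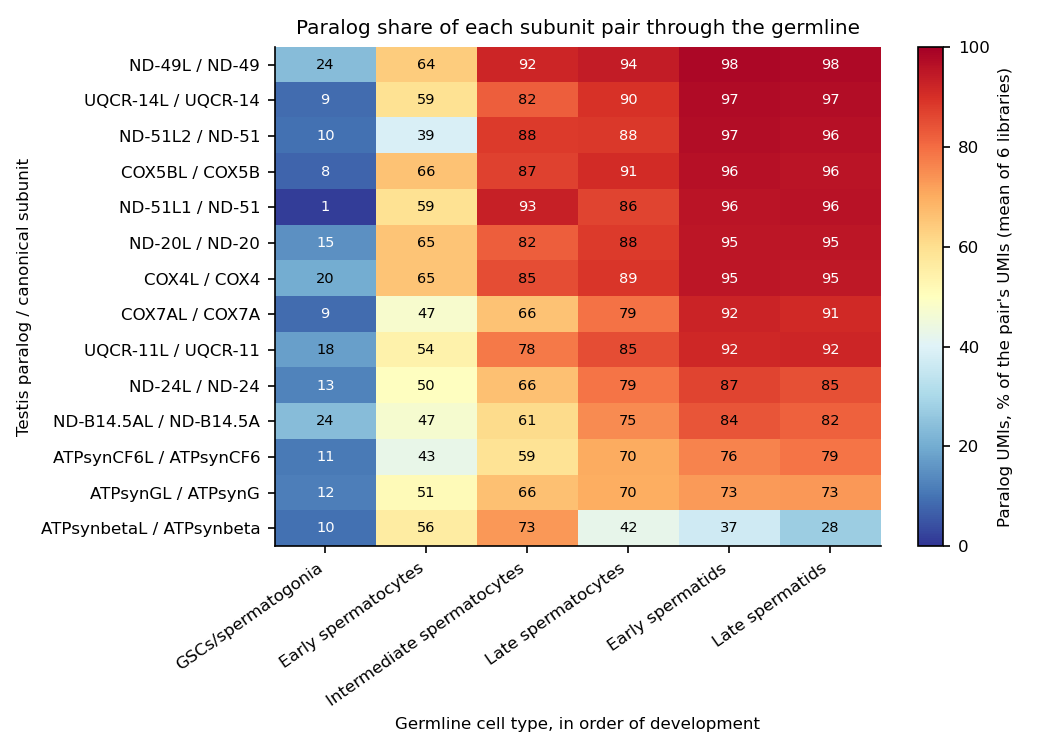
Share of the pair's UMIs that came from the testis paralog (colour and number, percent, mean of 6 libraries) for 14 subunit pairs (rows) in the 6 germline types in order of development (columns). The 13 pairs other than ATPsynbetaL/ATPsynbeta have a mean above 50% from intermediate spermatocytes on, and ATPsynbetaL/ATPsynbeta returns to 36.9% in early spermatids.

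ATPsynepsilonL behaved unlike the other paralogs. It was already present in GSCs/spermatogonia at 807, 556 and 457 CPM in chinmoST and 1029, 322 and 1534 CPM in wild-type, and had only 7.88, 14.4 and 30.4 CPM in chinmoST and 10.9, 11.1 and 6.99 CPM in wild-type early spermatids. Of its UMIs and those of sun, the epsilon subunit gene, it held 74.6 ± 9.87% in GSCs/spermatogonia and 11.3 ± 5.21% in early spermatids. In CySCs it held 1.38 ± 0.827%. Of the 16 paralogs, 13 were higher in early spermatids than in GSCs/spermatogonia in all 6 libraries and 1 was lower in all 6, where 24.2% of 8937 genes were higher in all 6 and 19.7% lower in all 6.

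Copies of subunits with other symbols followed a like course, with exceptions. Cyt-c-d, the cytochrome c of the male germline, gave 45.9 ± 38.5% of cytochrome c UMIs in GSCs/spermatogonia, 94.9 ± 2.57% in early spermatocytes and 99.5 ± 0.183% in early spermatids. Its level was 1986, 1585 and 1533 CPM in chinmoST and 1845, 1653 and 1779 CPM in wild-type early spermatids. Cyt-c1L gave 77.6 ± 18.8% of its pair already in GSCs/spermatogonia and 98.8 ± 0.369% in early spermatids. COX6AL gave 88.5% of its pair with levy in early spermatids. Among the 6 genes with a CG number in the count tables, COX7CL gave 98.5%, COX6CL 85.7 ± 1.70% and UQCR-6.4L 80.7% of their pairs in early spermatids, while COX7AL2, a further copy of COX7A, gave only 3.83 ± 1.23%. COX6AL2, whose exons overlap those of Ir75d on the same strand, averaged 108 CPM in early spermatids against 9.24 CPM in GSCs/spermatogonia. COX7B, a canonical subunit of complex IV, averaged 10.9 against 524 CPM. SdhAL reached 31.7 ± 3.46% of the SdhA pair in early spermatids and 59.0 ± 6.41% in late spermatids.

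Canonical members with a paralog by symbol had lower ratios of spermatid to stem cell level in the median than those without one. Copies named in the reference annotation only (COX7CL and UQCR-6.4L) are counted here as paralogs by symbol. On the log2 scale, the ratio of early spermatid to GSC/spermatogonia means had a median of 3.33 for paralogs, of -3.01 for the 15 canonical members with a paralog by symbol and of -0.64 for the 49 without, beside -1.53 for all 8937 genes with at least 10 UMIs in each type. Of the 15 with a paralog, 14 were lower in early spermatids in all 6 libraries, and of the 49 without, 20 were lower and 5 higher in all 6. A log2 ratio below -2 was found in 11 of 15 with a paralog and 10 of 49 without. The 49 include SdhA, SdhB and Cyt-c1, whose copies SdhAL, SdhBL and Cyt-c1L lie outside the rule, and of the other 46, 8 were below -2 and 9 above 0. By complex, the canonical median was -0.52 for I, -0.17 for II, -1.96 for III, -2.83 for IV and -2.56 for V.

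**Figure D3:**
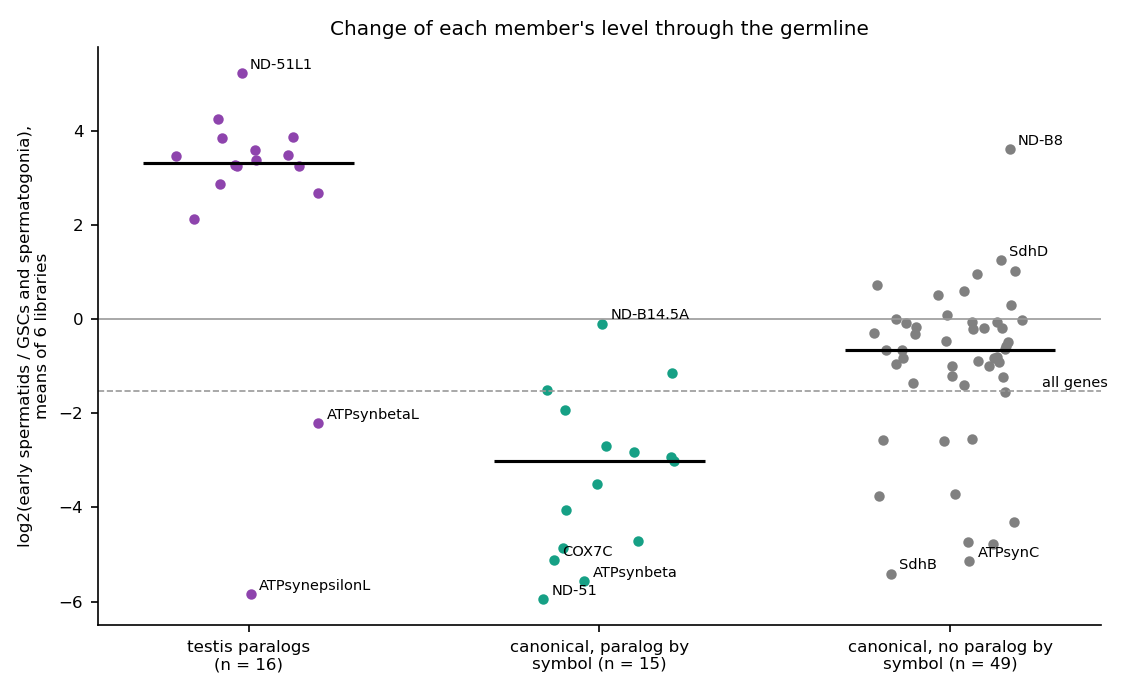
Log2 ratio of the mean level in early spermatids to that in GSCs/spermatogonia (vertical axis, means of 6 libraries) for each member, grouped as testis paralogs, canonical members with a paralog by symbol and canonical members without. Horizontal bars are group medians (3.33, -3.01 and -0.64) and the dashed line is the median of all genes (-1.53).

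The 5 canonical members with the smallest ratios were ND-51 (3.34 CPM in early spermatids against 205 CPM in GSCs/spermatogonia), ATPsynbeta (15.3 against 722 CPM), SdhB (3.61 against 153 CPM), ATPsynC (56.1 against 1970 CPM) and COX7C (10.0 against 348 CPM). SdhB encodes the iron-sulphur subunit of complex II. The 5 with the largest were ND-B8 (163 against 13.3 CPM), SdhD (601 against 252 CPM), SdhA, the flavoprotein of complex II (207 against 102 CPM), ND-13A (1004 against 511 CPM) and ND-B12 (635 against 385 CPM). ND-B8 was the 1 canonical member with the course of a paralog, at 126, 162 and 154 CPM in chinmoST and 138, 199 and 199 CPM in wild-type early spermatids, against 3.82, 8.36 and 3.08 CPM in chinmoST and 18.3, 46.0 and 0 CPM in wild-type GSCs/spermatogonia, where the last value allows up to 139 CPM (3 UMIs). Within complex II the 4 subunits, which form 1 enzyme, thus went separate ways.

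Subunits of ATP synthase differed widely in this ratio. The catalytic beta subunit ATPsynbeta and the ring subunit ATPsynC are given above. ATPsyngamma of the central stalk stood at 23.4 CPM in early spermatids against 622 CPM in GSCs/spermatogonia, ATPsyndelta at 27.1 against 364 CPM and, outside the rule, the alpha subunit blw at 22.5 ± 9.26 against 746 ± 136 CPM. The epsilon subunit sun, also of the central stalk, was at 102 against 225 CPM. In the peripheral stalk, ATPsynO stood at 123 against 742 CPM, ATPsynD at 111 against 655 CPM and ATPsynCF6 at 133 against 510 CPM, while ATPsynB was at 728 against 754 CPM. Of the membrane subunits, ATPsynF stood at 653 against 1020 CPM, ATPsynE at 545 against 1051 CPM and ATPsynG at 277 against 782 CPM. Stalk subunits were thus found both among the genes with a low ratio and near a ratio of 1.

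In somatic cells the median paralog stood below its level in early spermatids. Expressed as a percent of its early spermatid level in the same library, the median of the 14 paralogs that are abundant in early spermatids (without ATPsynepsilonL and ATPsynbetaL, which peak in earlier germ cells) was 0.929 to 5.22% in CySCs, 1.15 to 7.88% in hub cells and 6.71 to 18.6% in late cyst cells, and 20.4 to 55.5% in pigment cells. In muscle cells the median was 9.34 to 49.9%. Single paralogs passed their early spermatid level, at up to 138% in pigment cells (chinmoST 9–11 d) and 130% in muscle cells (chinmoST 6–8 d). Transcripts of 8 late spermatid marker genes, expressed in the same way against late spermatids, stood at 0.207 to 2.44% in CySCs, 1.37 to 4.99% in late cyst cells and 4.76 to 11.0% in pigment cells. The paralog percent refers to early spermatids and the marker percent to late spermatids. The 8 markers stood at 728 ± 57.3 CPM in early and 10016 ± 1826 CPM in late spermatids, so the percents cannot be compared directly. The part of spermatid RNA in the somatic paralog levels was not tested.

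The comparison of genotypes asked whether cyst cells of chinmoST testes, and the germ cells they enclose, differ from wild-type in these genes. Summed UMI counts were tested in 8 cell types with edgeR's quasi-likelihood test and Benjamini-Hochberg adjustment over all genes of the type, a gene being called at an adjusted p under 0.05. Log2 fold changes are chinmoST over wild-type, each with its standard error (SE), and adjusted p-values are from this test unless another is named.

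In CySCs all 62 canonical members tested had a lower fitted level in chinmoST, and none passed the adjusted test. The sum of the 64 stood at 32104, 27269 and 18321 CPM in chinmoST and 62206, 65612 and 65590 CPM in wild-type, so each chinmoST library lay below each wild-type library, and chinmoST was at 2.59% of all UMIs in the mean, against 6.45% in wild-type. Of the 62 canonical members that passed the filter on low counts, 62 had a log2 fold change below 0, where 47.8% of the 3428 genes tested did, with a median of -0.92 beside 0.04 for all genes. The libraries did not overlap, with chinmoST lower, in 58 of 62, where this held for 12.9% of genes. No member was called, as no gene of the 3428 was (0%), and the smallest adjusted p of a member was 0.301. At an unadjusted p under 0.05, 30 of 62 canonical members passed, beside 9.04% of genes. The 62 genes are not independent samples, and the comparison rests on 3 libraries each.

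All 5 complexes had a median below 0. The median log2 fold change was -1.18 for the 7 subunits of complex IV, -1.05 for the 11 of complex V, -1.04 for complex III, -0.81 for complex II and -0.78 for the 32 tested of complex I. ATPsynC had 3226, 2852 and 2017 CPM in chinmoST and 7409, 6434 and 7066 CPM in wild-type CySCs (log2 fold change -1.05, SE 0.312, adjusted p = 0.389). ATPsynCF6, of the peripheral stalk, had 640, 618 and 497 CPM in chinmoST and 1562, 1880 and 1987 CPM in wild-type (-1.31, SE 0.343, adjusted p = 0.301). COX8, a small subunit of complex IV, had 599, 585 and 418 CPM in chinmoST and 1181, 2068 and 1789 CPM in wild-type (-1.34, SE 0.380, adjusted p = 0.348). All 3 genes had groups that did not overlap. RFeSP had 589, 365 and 274 CPM in chinmoST, while its wild-type libraries were all between 1197 and 1201 CPM. DESeq2 called ATPsynCF6 (adjusted p = 0.0129) and COX8 (adjusted p = 0.0406) as lower, with 1.02% of all genes called lower.

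Genes that act beside the complexes showed the same sign in CySCs. Of 7 tested subunits with other symbols, 7 were below 0, with a median log2 fold change of -1.18, and none was called. Cyt-c-p, the main somatic cytochrome c, had 347, 596 and 363 CPM in chinmoST and 809, 2350 and 1481 CPM in wild-type (-1.55, adjusted p = 0.355). Of the genes of the tricarboxylic acid cycle, which supplies NADH and succinate, 9 of 10 were below 0, of assembly factors 4 of 5, and of glycolysis 11 of 12, with a median of -1.53 for glycolysis. With age as a block, 3 glycolytic genes were called as lower (Ald1, Gapdh1 and Pglym78) and no member was (smallest adjusted p of a member 0.112), where 1.02% of genes were called lower.

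These values rest on few cells. CySCs numbered 26, 33 and 31 cells in chinmoST and 9, 4 and 7 in wild-type, with median depths of 4640 to 7174 UMIs per cell in chinmoST and 7734.5 to 20490 in wild-type. The 2 early cyst cell markers (Wnt4 and CG31676), which mark the type with the highest canonical level, summed to 466 to 2638 CPM in chinmoST CySCs and 2371 to 4257 CPM in wild-type CySCs, ranges that overlap. The 5 GSC/spermatogonia markers found in the files summed to 67.0 to 150 CPM in chinmoST and 0 to 20.9 CPM in wild-type, with zpg, vas and bam at 0 in wild-type. The part of either in the result was not tested. In early cyst cells the canonical sum was 59066, 72692 and 64472 CPM in chinmoST and 73860, 56479 and 71651 CPM in wild-type, and in hub cells the genotypes also overlapped.

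**Figure D4:**
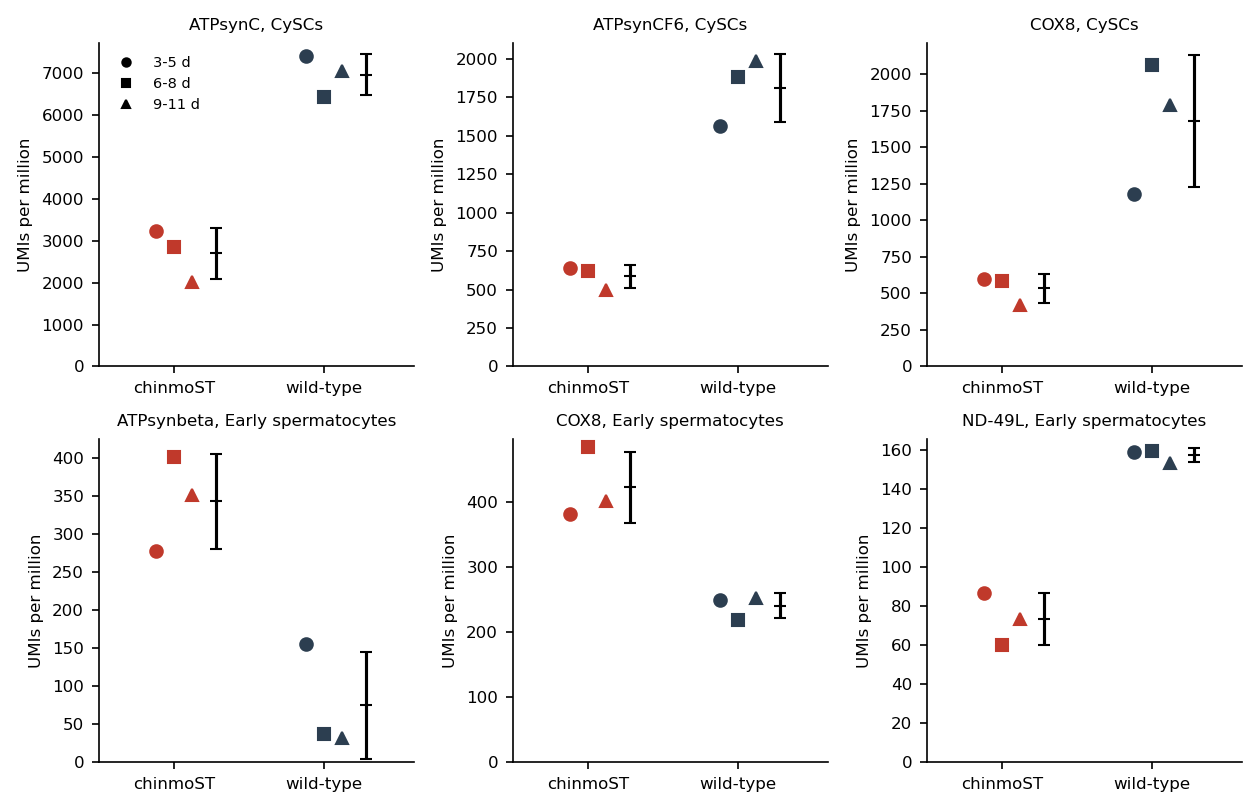
Level (CPM) of ATPsynC, ATPsynCF6 and COX8 in CySCs (upper row) and of ATPsynbeta, COX8 and ND-49L in early spermatocytes (lower row) in each library, chinmoST left of wild-type, with the shape giving the age. Bars are mean ± SD of 3 libraries. The 3 genes of the upper row and ND-49L are lower in every chinmoST library, and ATPsynbeta and COX8 in early spermatocytes are higher.

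In intermediate cyst cells the canonical sum differed little and the paralogs more. The canonical sum was 38025, 36143 and 34903 CPM in chinmoST and 39186, 38829 and 39978 CPM in wild-type, so the groups did not overlap, although the log2 ratio of the means was only -0.11. Of 64 canonical members, 54 had a log2 fold change below 0, where 48.4% of genes did, with a median of -0.11. Of 16 paralogs, 14 were below 0, with a median of -0.60, and the paralog sum was lower at all 3 ages, at 1898, 913 and 833 CPM in chinmoST and 3203, 1641 and 966 CPM in wild-type. None of the 80 members was called, where 0.0762% of 9184 genes were, and 0 had an unadjusted p under 0.05, where 9.17% of genes did, while DESeq2 also called 0 members. With age as a block, 10 members were called as lower, 9 paralogs and ND-B8, where 11.7% of genes were. COX5BL, the smallest adjusted p of these, had 235, 98.3 and 93.7 CPM in chinmoST and 450, 216 and 115.1 CPM in wild-type (block adjusted p = 0.0095). The same 14 paralogs were at 9.29 to 29.4% of their early spermatid level in this type (median per library), and the 8 late spermatid markers were at 180 to 369 CPM in chinmoST and 208 to 530 CPM in wild-type. Their part in the result was not tested.

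In GSCs/spermatogonia the fitted paralog levels were lower in chinmoST, again without a call. All 14 tested paralogs had a log2 fold change below 0, where 31.3% of 6469 genes did, with a median of -2.04 beside 0.42 for all genes. The libraries did not overlap, with chinmoST lower, for 11 of 14, where this held for 13.9% of genes. In wild-type of 6–8 d and 9–11 d, 1 UMI was worth 46.0 and 46.5 CPM. A gene below these levels in chinmoST was therefore exceeded there by a single UMI. No member was called, where 0.34% of genes were, and the smallest adjusted p was 0.0563. At an unadjusted p under 0.05, 12 of 14 paralogs and 0 of 63 canonical members passed, beside 19.1% of genes. ATPsynGL had 30.6, 14.6 and 8.59 CPM in chinmoST and 106, 506 and 46.5 CPM in wild-type (log2 fold change -2.61, SE 0.703, adjusted p = 0.0563). Its value in the oldest wild-type library is 1 UMI. COX4L, given above, had a log2 fold change of -2.27 (SE 0.690, adjusted p = 0.0653), and DESeq2 called both as lower, with 2.47% of genes called lower. ATPsynepsilonL, the paralog already abundant in these cells, had a log2 fold change of only -0.06 (adjusted p = 0.977).

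Canonical members of GSCs/spermatogonia had 33636, 20085 and 16483 CPM in sum in chinmoST and 36998, 26362 and 24877 CPM in wild-type, groups that overlap. Their direction depends on the scale. The log2 ratio of the mean sums was -0.33, while 44 of 63 had a fitted log2 fold change above 0, where 68.7% of genes did, with a median of 0.19, below the 0.42 of all genes. Wild-type held only 18, 6 and 4 of these cells, and its later libraries 21736 and 21506 UMIs in all, so that 1 UMI was worth 46.0 and 46.5 CPM there, while chinmoST held 49, 211 and 162 cells. The 5 early spermatocyte markers summed to 122 to 249 CPM in chinmoST and 651 to 1702 CPM in wild-type GSCs/spermatogonia, and the 8 late spermatid markers to 19.8 to 47.3 and 93.0 to 322 CPM. The 7 intermediate spermatocyte markers summed to 146 to 168 CPM in chinmoST and 372 to 1518 CPM in wild-type. The 3 intermediate cyst cell markers were higher in chinmoST, at 1532 to 2114 CPM against 138 to 917 CPM in wild-type. The 5 hub markers were as well, at 147 to 450 CPM against 138 to 139 CPM. None of these ranges overlaps its counterpart. The CySC, early cyst cell and late cyst cell lists did overlap, with means of 120, 2.01 and 3.04 CPM in chinmoST and 101, 179 and 16.4 CPM in wild-type. The part of other cells or their RNA in the member levels was not tested. The paralog share was 3.10, 3.55 and 3.27% in chinmoST and 4.63, 10.5 and 9.48% in wild-type, with exact intervals of 8.21 to 13.1% and 7.24 to 12.1% in the later wild-type libraries.

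Early spermatocytes were the 1 type of the 8 with members called in the main test, and there most canonical members and most paralogs lay on opposite sides of 0. Among 79 tested members, 3 were called, a share not above the 4.03% of 6501 genes that were called. ATPsynbeta and COX8 rose and ND-49L fell in chinmoST, where 3.25% of genes rose and 0.784% fell. ATPsynbeta (FBgn0010217, chromosome 4, 1031484 to 1034917), the catalytic subunit of ATP synthase, had 278, 402 and 351 CPM in chinmoST and 156, 37.2 and 32.0 CPM in wild-type (log2 fold change 2.35, SE 0.508, adjusted p = 0.0411). COX8 (FBgn0263911, 3L, 21538859 to 21539447) had 382, 484 and 401 CPM in chinmoST and 250, 219 and 253 CPM in wild-type (1.02, SE 0.228, adjusted p = 0.0425). ND-49L (FBgn0039331, 3R, 25358285 to 25360034), the copy of a core complex I subunit, had 87.0, 60.1 and 73.7 CPM in chinmoST and 159, 160 and 154 CPM in wild-type (-0.94, SE 0.225, adjusted p = 0.0478). For none of the 3 did the genotypes overlap. At an unadjusted p under 0.05, 13 of 63 canonical members (20.6%) and 7 of 16 paralogs (43.8%) passed, beside 30% of genes. Canonical members thus passed less often than all genes, and paralogs more often. DESeq2 called 5 members, a share not above the 6.71% of genes it called. Each of the later libraries decided these calls: 0 members were called when the chinmoST or the wild-type library of 6–8 d or of 9–11 d was left out. Leaving out the youngest chinmoST library gave 14 calls, and leaving out the youngest wild-type library gave 16. The share of all genes called in these refits was not tabulated, so the counts have no background beside them.

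Of 63 canonical members, 56 had a log2 fold change above 0 in early spermatocytes, where 53.2% of genes did, with a median of 0.41 beside 0.06 for all genes. All 7 tested in complex IV, 11 in complex V and 8 in complex III were above 0, with medians of 0.60, 0.61 and 0.42. Of 16 paralogs, 14 were below 0, where 46.8% of genes were, with a median of -0.54, and 8 had groups that did not overlap with chinmoST lower, where 22.4% of genes did. ATPsynCF6L had 393, 205 and 288 CPM in chinmoST and 545, 643 and 598 CPM in wild-type (-0.86, adjusted p = 0.0644), and ND-20L a log2 fold change of -0.82 (adjusted p = 0.0637). ND-B8, the canonical gene with the germline course of a paralog, was also below 0 (-0.93, adjusted p = 0.0695). ATPsynepsilonL, the paralog of GSCs/spermatogonia, lay on the canonical side, with 427, 422 and 426 CPM in chinmoST and 302, 147 and 272 CPM in wild-type (1.02, SE 0.279, adjusted p = 0.0634).

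The paralog share of early spermatocytes was 16.9, 10.6 and 14.4% in chinmoST and 19.8, 25.0 and 21.2% in wild-type, with no overlap. Cell by cell, among cells with at least 20 member UMIs, the median share was 16.7, 14.3 and 18.4% in chinmoST and 20, 24.8 and 21.4% in wild-type, and 6.40, 11.8 and 5.47% of chinmoST cells had a share under 5%, against 0.943, 0 and 1.27% of wild-type cells. chinmoST held 130, 452 and 906 of these cells and wild-type 106, 102 and 79. Their median depth was 1673, 1390 and 1476 UMIs per cell in chinmoST and 3517.5, 3307.5 and 2581 in wild-type. A share from fewer UMIs scatters more, and the part of depth in the shares per cell was not tested. The 5 GSC/spermatogonia markers found in the files summed to 118 to 189 CPM in chinmoST and 14.0 to 64 CPM in wild-type early spermatocytes. The 3 intermediate cyst cell markers summed to 199 to 399 CPM in chinmoST and 62 to 119 CPM in wild-type. Markers of later germline stages ran the other way: the intermediate spermatocyte list at 950 to 1597 and 1744 to 2032 CPM, the late spermatocyte list at 533 to 738 and 1107 to 1429 CPM and the late spermatid list at 512 to 960 and 1134 to 1308 CPM, in chinmoST and wild-type in that order. Early spermatid markers stood at 554 to 901 and 1169 to 1238 CPM. No range of these lists overlaps its counterpart, while the early spermatocyte list itself did overlap (863 to 1501 and 701 to 1424 CPM). The hub, CySC, early cyst cell and late cyst cell lists overlapped too. The part of cells of other stages or types, or of their RNA, in these differences was not tested.

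Among genes outside the complexes, PyK, which encodes the last enzyme of glycolysis, was the 1 of 11 tested glycolytic genes called in early spermatocytes, with 78.6, 157 and 108 CPM in chinmoST and 59.7, 26.4 and 35.2 CPM in wild-type (1.73, SE 0.408, adjusted p = 0.0454). None of 12 tested genes of the tricarboxylic acid cycle, 6 assembly factors or 10 subunits with other symbols was called by edgeR, while 3, 1 and 5 of them had an unadjusted p under 0.05.

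**Figure D5:**
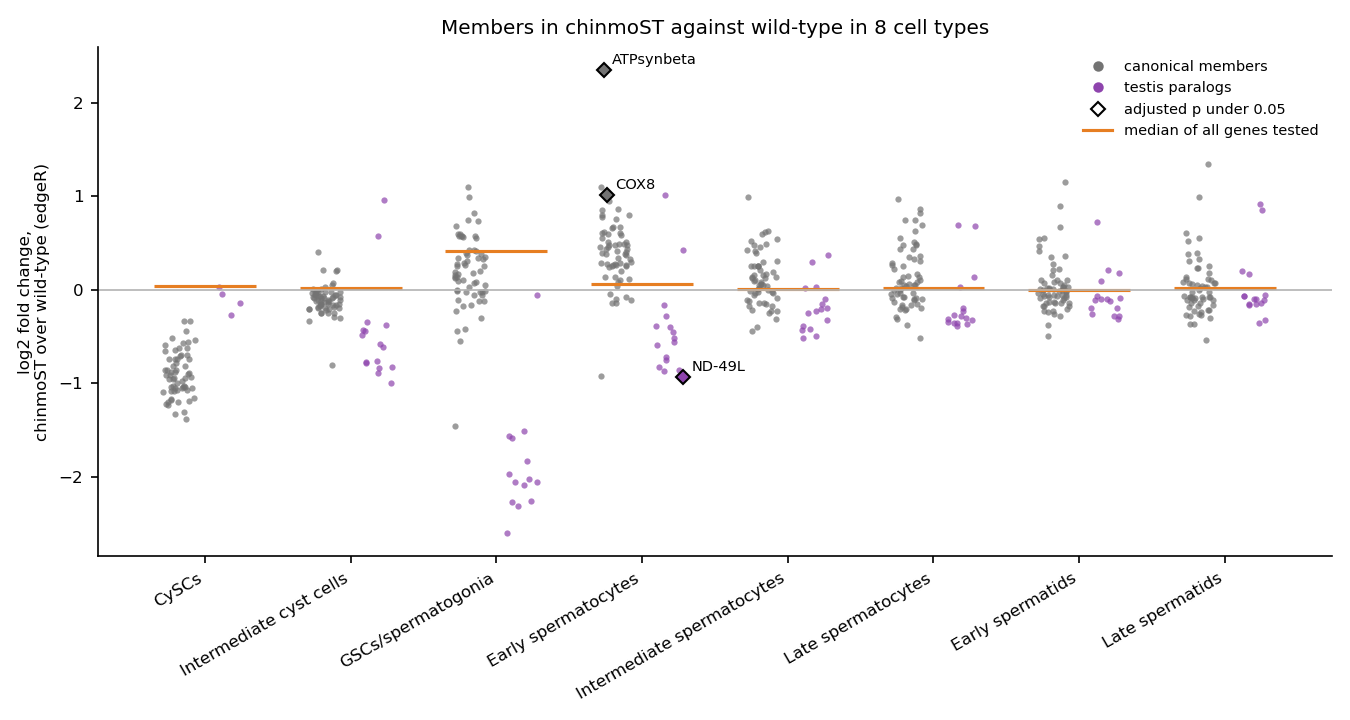
Log2 fold change of chinmoST over wild-type (vertical axis, edgeR) for each tested member in 8 cell types, canonical members in grey and testis paralogs in purple. Orange bars are the medians of all genes tested. Black diamonds mark the 3 members called at an adjusted p under 0.05, all in early spermatocytes, where 4.03% of all genes were called. All canonical points in CySCs and all paralog points in GSCs/spermatogonia lie below 0.

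From intermediate spermatocytes on, no member was called in the main test. In intermediate spermatocytes 0 of 76 members were called, where 0.466% of 6006 genes were, although 8 members had an unadjusted p under 0.05, beside 16% of genes, and DESeq2 called 0. The canonical sum there was 18837, 17048 and 17497 CPM in chinmoST and 18571, 15149 and 13955 CPM in wild-type. Without wild-type 3–5 d, 6 members were called as higher, a count with no share over all genes beside it. In late spermatocytes 0 of 79 members and 0% of 7662 genes were called, with 7 members at an unadjusted p under 0.05, beside 11.9% of genes, and 0 called by DESeq2. With age as a block, 3 members of complex V were called as higher, where 2.36% of genes were. ATPsynbeta had 106, 78.0 and 81.5 CPM in chinmoST and 65.2, 30.9 and 27.5 CPM in wild-type (block adjusted p = 0.0117), ATPsyngamma 96.5, 117 and 97.7 CPM and 65.6, 57.6 and 29.8 CPM (block adjusted p = 0.0238), and ATPsynC 285, 370 and 265 CPM and 240, 161 and 91.6 CPM (block adjusted p = 0.0364). In each, every chinmoST library lay above every wild-type library. The 5 GSC/spermatogonia markers found in the files summed to 13.6 to 50.2 CPM in chinmoST and 4.06 to 10.6 CPM in wild-type late spermatocytes, and the 5 early spermatocyte markers to 180.0 to 277 and 89.3 to 179.9 CPM. Neither pair of ranges overlaps, and their part in the result was not tested.

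Canonical members with a paralog were mostly above 0 at each of these stages. In early spermatocytes 13 of 15 of them had a log2 fold change above 0, against 43 of 48 without a paralog. The counts were 13 of 14 against 25 of 46 at the intermediate stage (51.3% of all genes), 14 of 15 against 24 of 48 at the late stage (52% of all genes) and 11 of 15 against 18 of 48 in early spermatids (49.2% of all genes). The difference between the classes was not tested. In early spermatids, 0 of 79 members were called, where 1.63% of 9276 genes were, with 1 member at an unadjusted p under 0.05, beside 11.7% of genes, and 0 called by DESeq2. The block fit called ND-B17.2, with 218, 158 and 154 CPM in chinmoST and 277, 222 and 210 CPM in wild-type, as lower (block adjusted p = 0.0444), where 3.24% of genes were. In late spermatids, 0 of 76 members were called, where 0.68% of 6472 genes were, with 1 member at an unadjusted p under 0.05, beside 8.98% of genes, and 0 called by DESeq2. The paralog share of early spermatids was 41.4, 38.5 and 37.6% in chinmoST and 41.9, 39.1 and 39.3% in wild-type, and these ranges overlap.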

How the data were processed

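Single-cell libraries (10x 3′ v3) of 6 testis samples were analysed. The deposited matrices hold raw UMI counts per gene and cell, which the authors made with Cell Ranger 4.0.0 on dm6. The deposited cell table, made by the authors with Seurat (versions 3.0 and 3.2.2 are named in the submitters' processing notes), gives the cell type, the counts per cell and the percent of counts that are mitochondrial. Cell types were taken from that table, and no doublet caller was run here. Of 17612 gene IDs, 17537 had a symbol in the reference tables, and positions are from the BDGP6 annotation.

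UMI counts were summed per library and cell type, and libraries with at least 3 cells of the type were tested in R 4.3.3 with edgeR 4.0.16 (TMM, filterByExpr, quasi-likelihood F test without a block, Benjamini-Hochberg over all genes). DESeq2 1.42.0 was an alternative, as were the age block, no filter on low counts, cells with at least 2105 UMIs only, and leaving out each library. The tests were tried on simulated counts. Python 3.11.15, numpy 2.4.6, pandas 2.3.3, scipy 1.17.1 and matplotlib 3.10.9 were used for sums and figures.

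The replicate number marks the age of the flies. Deviations from the group means correlated at over 0.1 in all 3 age pairs (0.199 to 0.801) in 6 of the 8 types, so age pairs the libraries there. The main test leaves this pairing out in those types too, and calls with age as a block are given as an alternative. By age, the values were 0.231, 0.249 and 0.00655 in GSCs/spermatogonia and 0.525, 0.0195 and 0.451 in early spermatocytes. As the lowest value of each was under 0.1, age was not taken as a pairing there, although the other values were above 0.1.

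The members and gene lists were chosen with earlier results of these data known. Named were every paralog and its partner, the most abundant canonical members of each complex, members called, the 5 canonical members with the largest and the 5 with the smallest ratio of early spermatids to GSCs/spermatogonia, and genes of the fixed lists. The ATP synthase subunits beyond these, the genes with CG numbers, and members named beside a block or DESeq2 call, were chosen after their values were seen. A planned motif search in promoters was not run, and no sequence was used here.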

Additional observations from a re-analysis of the deposited data

Results flagged for a closer look

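Among the 8 cell types tested, the summed canonical level differed in direction. The log2 ratio of chinmoST over wild-type means was 0.23 in early spermatocytes and 0.16 in intermediate spermatocytes, and -1.32 in CySCs, -0.11 in intermediate cyst cells and -0.33 in GSCs/spermatogonia. In each of these 5 types the sign was the same at all 3 ages, as it also was in 1 type that was not tested, male gonad associated epithelium (0.11). The difference between the types was not tested.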

How the results depend on the processing

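Counts of members called moved with the processing. DESeq2 called 2 members in CySCs, 2 in GSCs/spermatogonia and 5 in early spermatocytes. Without a filter on low counts, 1 member was called in GSCs/spermatogonia and 11 in early spermatocytes, and with cells above the common UMI minimum 3 were called in GSCs/spermatogonia. With age as a replicate block, 10 were called in intermediate cyst cells, 3 in late spermatocytes, 1 in early spermatids and 20 in early spermatocytes, where 27.4% of genes were called and age did not pair the libraries. The block changed no other count by over 1.5 times. Leaving out 1 library at a time gave 0 to 13 calls in GSCs/spermatogonia (13 without the youngest chinmoST library), 0 to 16 in early spermatocytes and 0 to 6 in intermediate spermatocytes. No share over all genes was tabulated for the unfiltered, common-minimum and leave-1-out fits, so their counts have no background. As a mean over cells, the paralog share was 36.1% in early spermatids and 35.7% in late spermatids, against 39.6% from summed UMIs in both. ND-MNLL as a paralog, ATPsynepsilonL left out and the direction counts were alternatives chosen after seeing the data. None of these alternatives counted as reversing a direction, but a summed ratio smaller than its SD between libraries could not count as reversed. The summed canonical log2 ratios of early and late spermatids, 0.0039 and -0.025, were this small, and their sign is not settled. Canonical members of GSCs/spermatogonia also differ in sign between summed CPM and fitted values, as given above. Depth limits GSCs/spermatogonia and CySCs most, where wild-type libraries held 4 to 18 cells of each type.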

Other observations

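SdhBL, a copy of the iron-sulphur subunit of complex II outside the symbol rule, differed by age in both genotypes. In early spermatids it had 16.8, 326 and 281 CPM in chinmoST and 14.0, 275 and 306 CPM in wild-type, from the youngest to the oldest flies. In late spermatocytes it had 12, 245 and 291 CPM in chinmoST and 13.9, 279 and 295 CPM in wild-type. The lowest later library was 16.4 times the highest 3–5 d library in early spermatids and 17.6 times in late spermatocytes. With 1 library per genotype and age, age and library preparation cannot be told apart.

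Genes of the tricarboxylic acid cycle and of glycolysis went both ways between early spermatids and GSCs/spermatogonia. Of 14 genes of the cycle, 6 were higher in early spermatids in all 6 libraries and 6 were lower in all 6. Among fumarase genes, Fum1 averaged 0.867 CPM in early spermatids against 53.2 CPM in GSCs/spermatogonia, while Fum3 averaged 385 against 14.7 CPM, Fum2 236 against 19.0 CPM and Fum4 187 against 12.4 CPM. Of the isocitrate dehydrogenase subunits, Idh3a averaged 3.27 against 98.5 CPM, Idh3b 422 against 97.3 CPM and Idh3g 72.4 against 56.3 CPM. Of 12 glycolytic genes, 5 were higher in all 6 libraries (Tpi, Ald1, Pfk, Eno and Pgi) and 5 lower in all 6 (PyK, Pgk, Gapdh1, Gapdh2 and Hex-A). Tpi averaged 765 against 68.2 CPM and Ald1 655 against 73.2 CPM, while PyK averaged 6.79 against 188 CPM and Pgk 7.28 against 147 CPM. These are descriptions without a test, since the cell types were defined from expression, and the genes named were chosen after their values were seen.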
